A study of Mus musculus with 18 samples.

Results

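Heat shock proteins and chaperones were examined as 10 genes, *Hsph1*, *Hspa1a*, *Hspa1b*, *Hspa8*, *Hsp90aa1*, *Hsp90ab1*, *Dnajb1*, *Dnaja1*, *Hspd1* and *Hspe1*, among the 55491 genes measured by bulk RNA-Seq in mouse B cells. The genes were picked by symbol, because *Hsph1* differed between OVA NP and PBS in both tissues, and all 10 passed the low-count filter in every comparison. Values of OVA NP–treated mice are therefore given as a description, without tests, for all 10 genes. Every mouse was a female BALB/cJ animal, 10 to 12 weeks old at collection, sensitized intraperitoneally to ovalbumin (OVA, the egg allergen) with 20 µg OVA and 1 mg alum on days 0 and 14. On days 28 and 42 mice received 100 µL PBS, 100 µg soluble OVA, or 2.5 mg OVA NPs (polymer nanoparticles that encapsulate OVA) intravenously, and B cells were collected on day 44 by magnetic negative selection. Spleen and Peyer's patch (PP), the lymphoid tissue of the small intestine, each gave 3 libraries per treatment, for 18 in all. No label states that the libraries of a number in different groups come from 1 mouse, and p-values measure the spread between these libraries.

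Heat shock proteins are chaperones that bind unfolded or newly made proteins and help them fold. HSP70 proteins bind and release clients in a cycle driven by ATP, in which J-domain proteins (*Dnaja1*, *Dnajb1*) deliver clients and start ATP hydrolysis, and HSP110 proteins such as *Hsph1* release the spent nucleotide. HSP90 proteins act later on kinases, receptors and other near-native clients, and *Hspd1* with its lid *Hspe1* folds proteins inside mitochondria. Some of these genes are expressed in most cells, such as *Hspa8* and *Hsp90ab1*, and others, such as *Hspa1a* and *Hspa1b*, are known for very low levels at rest and a steep rise after heat or other stress, through heat shock factors that bind repeats of GAA and its complement TTC.

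Library totals ran from 14177253 to 30052297 counts, at which 3 counts corresponded to 0.0998 to 0.212 CPM (counts scaled to library size). The 8 B cell markers summed to between 7825 and 9439 CPM in the spleen and between 5852 and 7365 CPM in PP, and none of them was at 0. Markers of other cells were present at lower levels. The 9 T cell markers summed to 65.7 to 85.4 CPM in the spleen and 137 to 183 CPM in PP. The 7 epithelial markers summed to 7.15 to 10.1 CPM in the spleen and 177 to 823 CPM in PP. Myeloid markers summed to 57.4 to 300 CPM in the spleen and 95.4 to 243 CPM in PP. Stromal and endothelial markers summed to 166.9 to 249.5 CPM in the spleen and 97.25 to 248.5 CPM in PP. The tissues also differed in preparation, since PP were digested with collagenase IV and DNase I for 30 min at 37 °C, whereas spleens were dissociated mechanically and treated with ACK lysis buffer. Tissue and digestion cannot be told apart. In such mixtures, fewer cells of a type and less RNA per cell cannot be told apart either.

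The start sites of the genes were searched for the heat shock element, the sequence that heat shock factors bind. RefSeq promoters (GRCm38.p6, 250 bases before and 50 bases after the start site) were available for 7 of the 10 genes, *Hsph1*, *Hspa1a*, *Hspa1b*, *Dnajb1*, *Dnaja1*, *Hspd1* and *Hspe1*. The 8-base motifs GAANNTTC and TTCNNGAA each read the same on both strands and overlap where units repeat, and at least 1 of them was found in 6 of the 7 promoters, *Dnajb1* being the exception. Either motif was present in the promoters of 4587 of 27025 genes in the table (17%). A run of 3 units, GAANNTTCNNGAA or TTCNNGAANNTTC, was present in *Hsph1*, *Hspd1* and *Hspe1* and in 0.662% of all genes. A match is a description of these letters and not a binding site. The stretches with the motif in capitals are shown because the genes that carry them differ in pattern below. *Hspa1a* (chr17:34972227-34972286, minus strand) and *Hspa1b* (chr17:34959309-34959368, minus strand) share the same 60 bases, and their 250 upstream bases differ at 3 positions.
Hspa1a: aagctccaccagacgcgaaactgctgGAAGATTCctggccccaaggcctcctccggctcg
Hspa1b: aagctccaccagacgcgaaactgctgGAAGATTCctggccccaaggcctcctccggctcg
*Hspd1* and *Hspe1* are transcribed away from each other and share 1 stretch of 4 units (chr1:55088053-55088082), which lies in an annotated exon of *Hspd1* and is given here as read on the strand of each gene.
Hspe1: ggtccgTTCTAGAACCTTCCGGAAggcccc
Hspd1: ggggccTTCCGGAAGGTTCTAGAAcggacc
*Hsph1* has 1 copy of the 8-base motif before its RefSeq start site (chr5:149636351-149636380, minus strand) and a run of 3 units after it (chr5:149636287-149636309, minus strand), both in annotated exons of *Hsph1*.
Hsph1 before the start site: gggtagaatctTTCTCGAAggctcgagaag
Hsph1 after the start site: tgctgcagaTTCTGGAAAGTTCt
*Dnaja1* has 1 copy (chr4:40722333-40722362, plus strand), in an annotated exon of *Dnaja1* and, on the other strand, of *Gm6297*.
Dnaja1: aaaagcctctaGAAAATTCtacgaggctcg

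Levels of the 10 genes differed widely. To compare genes, CPM was divided by the length of the longest coding transcript in kilobases. In the spleen of PBS mice *Hsp90ab1* had the highest level, at 572 ± 20.02 CPM per kb (SD, n = 3), followed by *Hspa8* at 321 ± 15.2 and *Hsp90aa1* at 150.9 ± 8.61 CPM per kb. *Hspd1* (104 ± 10.3) and *Hspe1* (96.0 ± 3.61) overlapped within their SDs. *Dnaja1* stood at 33.8 ± 0.90 CPM per kb, and *Hsph1* (20.9 ± 1.25) and *Dnajb1* (19.3 ± 0.86) did not differ beyond their spread. *Hspa1b* and *Hspa1a* came last, at 0.732 ± 0.212 and 0.197 ± 0.027 CPM per kb. In PP of PBS mice the order was the same at the top, with *Hsp90ab1* at 684 ± 17.6 and *Hspa8* at 369 CPM per kb (831 to 948 CPM in the 3 libraries), but *Hspa1b* came next at 236 ± 88.5 CPM per kb and overlapped *Hsp90aa1* (167 ± 11.1). *Hspa1a*, at 99.3 ± 38.7 CPM per kb, overlapped *Hspe1* and *Hspd1*. Summed, the 10 genes accounted for 0.341% to 0.561% of spleen counts and 0.434% to 0.769% of PP counts.

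**Figure D1:**
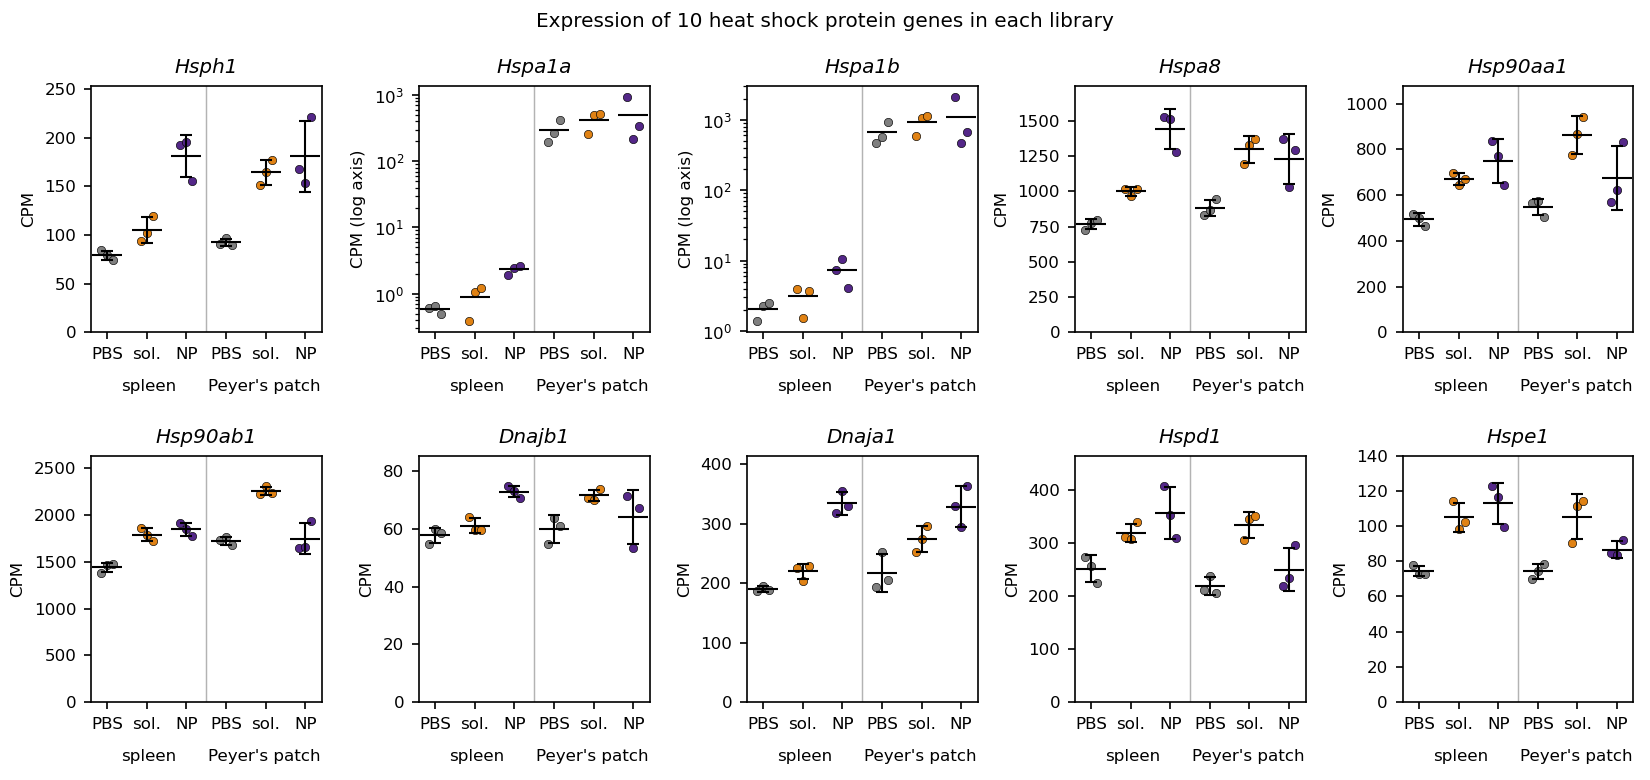
Level of each gene in CPM (vertical axis, linear except the log axes of *Hspa1a* and *Hspa1b*) in 3 libraries (points) per group, for PBS, soluble OVA (sol.) and OVA NP in the spleen and PP. Horizontal lines are means and bars are SDs, the latter left out on log axes. *Hspa1a* is at most 2.65 CPM in the spleen and at least 196 CPM in PP, *Hspa1b* at most 10.5 and at least 466 CPM, and the spleen and PP ranges of the other 8 genes overlap.

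*Hsph1*, the HSP110 nucleotide exchange factor (chromosome 5, 149614287 to 149636376, minus strand), was expressed in the spleen at 84.2, 79.2 and 74.8 CPM in the 3 PBS mice, 93.9, 101.9 and 120 CPM in the 3 mice given soluble OVA, and 192, 196 and 156 CPM in the 3 OVA NP–treated mice. No values of these groups overlapped, and the order was PBS, soluble OVA, OVA NP. In PP it was 90.4, 97.0 and 90.3 CPM with PBS, 152, 165 and 178 CPM with soluble OVA, and 168, 153 and 222 CPM with OVA NP. All 6 libraries of OVA-treated mice exceeded the 3 PBS libraries, and the soluble OVA and OVA NP values overlapped. Soluble OVA against PBS gave a log2 fold change of 0.41 in the spleen (standard error 0.09, adjusted p = 0.005 by edgeR's quasi-likelihood test over all genes) and 0.82 in PP (standard error 0.08, adjusted p = 0.000159). The effect was 0.42 larger in PP (standard error 0.12), a difference that missed the threshold with edgeR (adjusted p = 0.0572) and passed it with DESeq2 (adjusted p = 0.022). Across the alternatives of that fit the adjusted p ran from 0.00947 to 0.152, and leaving out PP PBS replicate 2, PP soluble OVA replicate 1 or spleen soluble OVA replicate 3 took it under the threshold (0.0482, 0.03 and 0.0129). The PBS libraries of these tests also served the OVA NP contrast that chose *Hsph1*. For this gene the p-values are therefore not independent of the choice. For OVA NP against PBS, the contrast that chose the gene, the log2 difference was 1.20 in the spleen and 0.98 in PP, with standard errors of 0.09 and 0.12. In PP, edgeR called 0 of all 15798 genes for that contrast, and DESeq2 called 150. Against soluble OVA the log2 difference with OVA NP was 0.79 (standard error 0.11) in the spleen and 0.15 (standard error 0.13) in PP. The latter was -0.07 when PP OVA NP replicate 3 was left out.

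*Hspa8*, the constitutive cytosolic HSP70 (chromosome 9, 40800984 to 40810087, plus strand), followed the same order in the spleen. It was at 727, 777 and 798 CPM with PBS, 1017, 965 and 1018 CPM with soluble OVA, and 1531, 1517 and 1277 CPM with OVA NP, with no overlap between groups. In PP it was at 831, 868 and 948 CPM with PBS, 1193, 1333 and 1374 CPM with soluble OVA, and 1371, 1033 and 1295 CPM with OVA NP, where both OVA groups lay above PBS and overlapped each other. Soluble OVA raised *Hspa8* by a log2 fold change of 0.38 in the spleen (standard error 0.07, adjusted p = 0.00108 by edgeR) and 0.55 in PP (standard error 0.09, adjusted p = 0.0019). The span of *Hspa8* also holds 3 small nucleolar RNA genes, and whether any of their reads enter its counts was not examined.

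*Dnaja1* (chromosome 4, 40722150 to 40737149, plus strand), a J-domain partner of *Hspa8*, was at 187, 196 and 188 CPM in the spleen with PBS, 226, 205 and 229 CPM with soluble OVA, and 318, 355 and 330 CPM with OVA NP. The OVA NP group stood well above both others, and soluble OVA lay just above PBS. In PP the values were 193, 253 and 205 CPM with PBS, 253, 275 and 296 CPM with soluble OVA, and 330, 294 and 363 CPM with OVA NP, so that PBS and soluble OVA touched at 253 CPM. The soluble OVA difference in the spleen, 0.21 (standard error 0.06, adjusted p = 0.0252 by edgeR), lay under the fold-change cutoff of 0.25 and passed it without soluble OVA replicate 2 (0.261). In PP it was 0.33 (standard error 0.11, adjusted p = 0.0475 by edgeR), a call that was lost when PBS replicate 1 or 3, or soluble OVA replicate 2 or 3, was left out (adjusted p from 0.0635 to 0.162). *Dnajb1* (chromosome 8, 83608193 to 83612653, plus strand), the J-domain protein usually induced with *Hspa1a*, ranged only from 53.4 to 74.7 CPM over the 18 libraries. Its soluble OVA difference was 0.08 in the spleen (adjusted p = 0.399 by edgeR) and 0.25 in PP (adjusted p = 0.0422), neither called. The PP value lay at the cutoff and passed it with DESeq2 size factors (0.265), with no filter (0.286) and without PBS replicate 2 (0.326) or 3 (0.315). In the spleen the 3 OVA NP values, 74.7, 73.0 and 70.8 CPM, lay above all 6 others, which reached at most 64.3 CPM. In PP the OVA NP values, 71.5, 53.4 and 67.4 CPM, spanned those of PBS. *Dnaja1* overlaps *Smu1* and *Gm6297* on the other strand, and *Mir207*.

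Both cytosolic HSP90 genes rose with soluble OVA in both tissues. *Hsp90aa1* (chromosome 12, 110690605 to 110702728, minus strand), the more inducible form, was at 520, 502 and 464 CPM in the spleen with PBS and 699, 645 and 672 CPM with soluble OVA. In PP it was at 564, 574 and 507 CPM with PBS and 775, 870 and 944 CPM with soluble OVA. The log2 fold changes were 0.44 in the spleen (standard error 0.07, adjusted p = 0.000408 by edgeR) and 0.64 in PP (standard error 0.09, adjusted p = 0.00104). *Hsp90ab1* (chromosome 17, 45567775 to 45573271, minus strand), the constitutive form, went from 1382, 1465 and 1473 CPM to 1864, 1788 and 1723 CPM in the spleen, and from 1732, 1763 and 1676 CPM to 2226, 2307 and 2235 CPM in PP. Its log2 fold changes were 0.32 (standard error 0.07, adjusted p = 0.00483 by edgeR) and 0.38 (standard error 0.07, adjusted p = 0.00307). With OVA NP, the values of each gene overlapped between the tissues, and a tissue difference of the OVA NP effect was not tested. In the spleen *Hsp90ab1* was at 1913, 1849 and 1777 CPM with OVA NP, overlapping soluble OVA, whereas in PP it was at 1645, 1657 and 1935 CPM, overlapping PBS and below all 3 soluble OVA values. *Hsp90aa1* with OVA NP was at 836, 770 and 647 CPM in the spleen and 569, 622 and 834 CPM in PP.

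The mitochondrial pair also rose with soluble OVA in both tissues. *Hspd1* (chromosome 1, 55077835 to 55088243, minus strand) was at 273, 257 and 224 CPM with PBS and 310, 306 and 338 CPM with soluble OVA in the spleen, and at 212, 237 and 205 CPM with PBS and 306, 344 and 351 CPM with soluble OVA in PP. *Hspe1* (chromosome 1, 55088132 to 55091307, plus strand) was at 77.5, 73.0 and 72.5 CPM with PBS and 114, 98.4 and 102.3 CPM with soluble OVA in the spleen, and at 69.9, 74.4 and 78.4 CPM with PBS and 90.5, 111 and 114 CPM with soluble OVA in PP. For both genes the soluble OVA values lay above all PBS values of the same tissue. *Hspd1* rose by 0.34 in the spleen (standard error 0.08, adjusted p = 0.00588 by edgeR) and 0.60 in PP (standard error 0.08, adjusted p = 0.000962), and *Hspe1* by 0.50 (standard error 0.06, adjusted p = 0.000103) and 0.49 (standard error 0.10, adjusted p = 0.00679). With OVA NP, *Hspd1* was at 406, 353 and 310 CPM in the spleen and 219, 234 and 295 CPM in PP, and *Hspe1* at 123, 116 and 99.6 CPM in the spleen and 84.4, 83.4 and 91.9 CPM in PP. In PP, all 3 *Hspd1* values with OVA NP were below all 3 with soluble OVA. The 2 gene bodies share 112 bases, where reads could be assigned to either gene if the counting did not use strand.

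*Hspa1a* and *Hspa1b*, the stress-inducible HSP70 genes (chromosome 17, 34969190 to 34972156 and 34956436 to 34959238, both minus strand), separated the tissues. *Hspa1a* was at 0.607, 0.651 and 0.497 CPM in the spleen of PBS mice (11 to 16 counts) and at 196, 267 and 421 CPM in PP of PBS mice (3645 to 8209 counts). *Hspa1b* was at 1.39, 2.24 and 2.53 CPM in the spleen and 466, 581 and 941 CPM in PP. The lowest PP values over all treatments, 196 CPM for *Hspa1a* and 466 CPM for *Hspa1b*, lay far above the highest spleen values, 2.65 and 10.5 CPM. The PP against spleen log2 fold change in PBS mice was 8.98 for *Hspa1a* (standard error 0.53, adjusted p = 0.000157 by edgeR) and 8.36 for *Hspa1b* (standard error 0.48, adjusted p = 0.000143). In soluble OVA mice, which share no library with the PBS comparison, it was 8.99 and 8.17. The coding sequences are nearly identical, and 37.9% of the read-length windows of the *Hspa1a* transcript occur unchanged in *Hspa1b*, so the split between them rests on RSEM's estimate. *Hspa1a* also overlaps the gene *Gm20481* on the other strand. *Hspa1b* had 1.94 to 2.37 counts for each *Hspa1a* count in PP and 1.47 to 10.4 in the spleen. Summed, the pair took 0.0652% to 0.312% of PP libraries and 0.000205% to 0.00134% of spleen libraries.

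**Figure D2:**
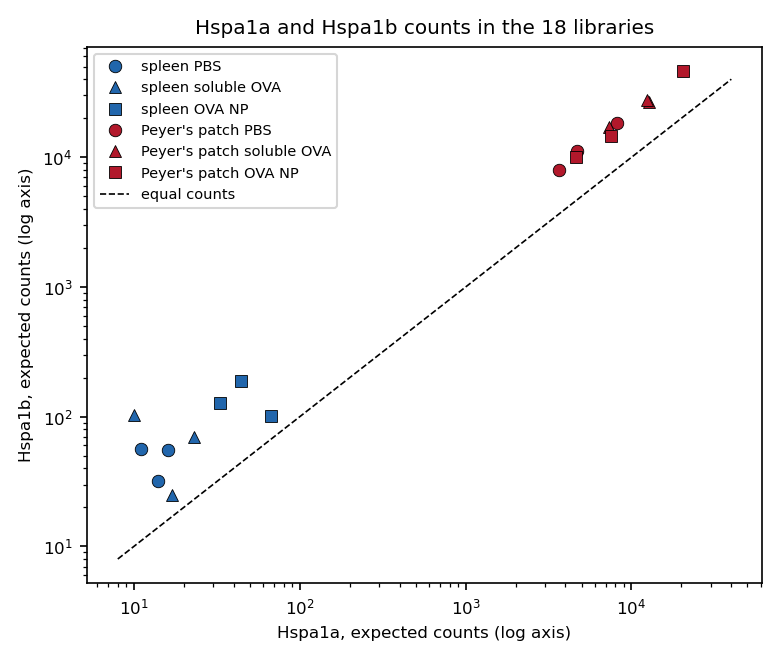
Expected counts of *Hspa1a* (horizontal, log axis) and *Hspa1b* (vertical, log axis) in the 18 libraries, coloured by tissue and shaped by treatment, with a dashed line at equal counts. The 9 spleen libraries hold 10 to 67 *Hspa1a* counts and the 9 PP libraries hold 3645 to 20336, and all points lie above the line.

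Within a tissue, neither gene of the pair was called with soluble OVA. Soluble OVA against PBS gave 0.56 for *Hspa1a* and 0.62 for *Hspa1b* in the spleen, with standard errors of 0.47 and 0.34 and adjusted p of 0.439 and 0.223 by edgeR, and without soluble OVA replicate 2 *Hspa1b* was called (0.924, adjusted p = 0.0397). In PP it gave 0.52 and 0.48, with standard errors of 0.43 and 0.40 and adjusted p of 0.448 and 0.444 by edgeR. These values turned on single libraries, since in PP *Hspa1a* was 0.294 without PBS replicate 1 and 0.917 without PBS replicate 3, and *Hspa1b* 0.28 and 0.872. In the spleen *Hspa1a* was 0.24 without soluble OVA replicate 3 and 0.976 without replicate 1, and *Hspa1b* was 0.397 without soluble OVA replicate 1 and 0.407 without PBS replicate 1. The approximate 95% intervals in PP, -0.33 to 1.36 and -0.30 to 1.26 on the log2 scale, were wider than the whole change of *Hsph1*. With OVA NP, *Hspa1a* was at 1.89, 2.46 and 2.65 CPM in the spleen (33 to 67 counts), above all 6 other spleen libraries, and *Hspa1b* was at 7.28, 10.5 and 4.04 CPM, of which the lowest lay just above the highest soluble OVA value of 4.00 CPM. In PP, OVA NP replicate 1 was the highest of the 18 libraries, at 935 CPM *Hspa1a* and 2113 CPM *Hspa1b*, and replicates 2 and 3 lay among the PBS values, at 216 and 343 CPM *Hspa1a* and 470 and 667 CPM *Hspa1b*. The OVA NP against PBS difference in PP, 0.78 for *Hspa1a* and 0.73 for *Hspa1b*, became -0.09 and -0.23 without replicate 1.

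Immediate-early genes, which are transcribed within minutes of a stimulus, were higher in PP of PBS mice for 17 of 17 list genes, with a median log2 fold change of 2.28 against 0.0091 over all genes tested. *Atf3* differed by 5.44, *Fosb* by 5.21 and *Fos* by 4.56. Summed, the 17 genes stood at 1526 to 1610 CPM in the spleen and 4132 to 6772 CPM in PP of PBS mice. In PP the sum was lower with soluble OVA, at 2095 to 2824 CPM, and 14 of 17 genes fell (*Nr4a1* by 2.41 on the log2 scale), where 13.9% of all genes were called lower. *Hspa1a* and *Hspa1b* were at 0.52 and 0.48 with soluble OVA there, with standard errors of 0.43 and 0.40, which do not settle a direction. Whether the pair moved with the immediate-early genes was not tested. *Hspb1*, a small heat shock protein of epithelia and stressed cells, was 3.53 higher on the log2 scale in PP of PBS mice (0.307 ± 0.206 against 3.52 ± 0.302 CPM, adjusted p = 0.000136 by edgeR). It was the 1 small heat shock protein called by edgeR of 3 tested, with a list median of -0.04, while DESeq2 called 3 of the list higher. Of the heat shock transcription factors 0 of 4 were called, and of the 24 co-chaperones 3 were higher and 4 lower. Over all genes tested in this comparison, 7050 of 15463 were called in either direction, and 25.5% were called higher. The 7 epithelial markers were also higher, 7 of 7, with a median of 10.3. The part of epithelial cells, digestion and immediate-early transcripts in the tissue difference of *Hspa1a* and *Hspa1b* was not tested.

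For the other 8 genes, tissue differences were small beside those of the Hspa1 pair. In PBS mice *Hsp90ab1* was called higher in PP, by 0.28 (standard error 0.05, adjusted p = 0.00181 by edgeR), which made 3 of the 10 genes, where 25.5% of all genes tested were called higher. The *Hsp90ab1* call was lost with no filter (0.241) and without spleen PBS replicate 1 (0.24). *Hsph1* (0.24) and *Hspa8* (0.22) passed the p threshold below the fold-change cutoff and were called without PP PBS replicate 1, as was *Dnaja1*, and *Hspd1* was called lower without spleen PBS replicate 3 (-0.276). With all libraries, the remaining 5 ranged from -0.19 in *Hspd1* to 0.21 in *Dnaja1*. *Hspe1* differed by 0.02, with an approximate 95% interval of -0.12 to 0.15. In soluble OVA mice 7 of the 10 were called higher in PP, where 26.7% of all genes tested were. Besides the Hspa1 pair these were *Hsph1* by 0.65 (standard error 0.10, adjusted p = 0.000488 by edgeR), *Hspa8* by 0.38, *Hsp90aa1* by 0.36, *Hsp90ab1* by 0.33 and *Dnaja1* by 0.32. *Hspd1* (0.07) and *Hspe1* (0.00) were not called, with approximate 95% intervals of -0.09 to 0.22 and -0.19 to 0.20.

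Counted together, soluble OVA raised 6 of the 10 genes in the spleen, where 10.5% of all 14128 genes tested were called higher. These were *Hsph1*, *Hspa8*, *Hsp90aa1*, *Hsp90ab1*, *Hspd1* and *Hspe1*. In PP it raised the same 6 and *Dnaja1*, 7 of 10, where 13.5% of 15792 genes were called higher. In each tissue the soluble OVA and PBS values did not overlap in 7 of the 10, where they did not in 37.8% of all genes in the spleen and 45.1% in PP. No member was called lower. The median log2 fold change of the 10 was 0.39 in the spleen and 0.50 in PP, beside -0.01 and -0.02 over all genes tested. The comparisons use the same PBS libraries as the OVA NP contrast that chose *Hsph1*, and without *Hsph1* the counts were 5 and 6 of 9. Tissue differences of the soluble OVA effect were called in 0 of the 10 genes by edgeR, where 6.84% of all genes were called and 3468 of 16541 (21%) had an unadjusted p under 0.05. DESeq2 called 1 of the 10, *Hsph1*, where it called 1823 genes in all, beside 1131 by edgeR. A count of 1 of 10 does not set these genes apart from genes in general. Differences other than that of *Hsph1* ranged from -0.17 (*Hspa1b*, standard error 0.70) to 0.26 (*Hspd1*, standard error 0.12).

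The OVA NP comparisons are described without tests, since they were used to choose the genes. In the spleen, all 10 were higher with OVA NP than with PBS, without overlap, where the groups did not overlap in 37.2% of all genes tested. Against soluble OVA in the spleen, 6 of the 10 did not overlap, where 14.2% of genes did not. These were *Hspa1a* at 1.43 (standard error 0.40), *Hspa1b* at 1.20 (0.43), *Hsph1* at 0.79 (0.11), *Dnaja1* at 0.61 (0.07), *Hspa8* at 0.53 (0.09) and *Dnajb1* at 0.26 (0.07). *Hsp90aa1*, *Hsp90ab1*, *Hspd1* and *Hspe1* lay between 0.05 and 0.17 and overlapped. In PP, *Hsph1*, *Dnaja1* and *Hspa8* were 0.98, 0.61 and 0.50 above PBS without overlap, as was *Hspe1* at 0.23, where 17.3% of all genes did not overlap. *Hsp90aa1*, *Hsp90ab1*, *Hspd1* and *Dnajb1* were 0.31, 0.03, 0.21 and 0.11 above PBS and overlapped it, as did *Hspa1a* and *Hspa1b*. Without PP OVA NP replicate 3, *Hsp90aa1* was 0.144 and *Hspd1* 0.0823, and without replicate 1 *Dnajb1* was 0.0089. Against soluble OVA in PP, *Hspd1* was -0.41 and *Hsp90ab1* -0.36 without overlap, where 48.4% of genes did not overlap. The other 8 overlapped, from -0.34 for *Hsp90aa1* and -0.27 for *Hspe1* to 0.27 for *Dnaja1*. The comparisons of OVA NP and of soluble OVA with PBS share the PBS libraries.

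**Figure D3:**
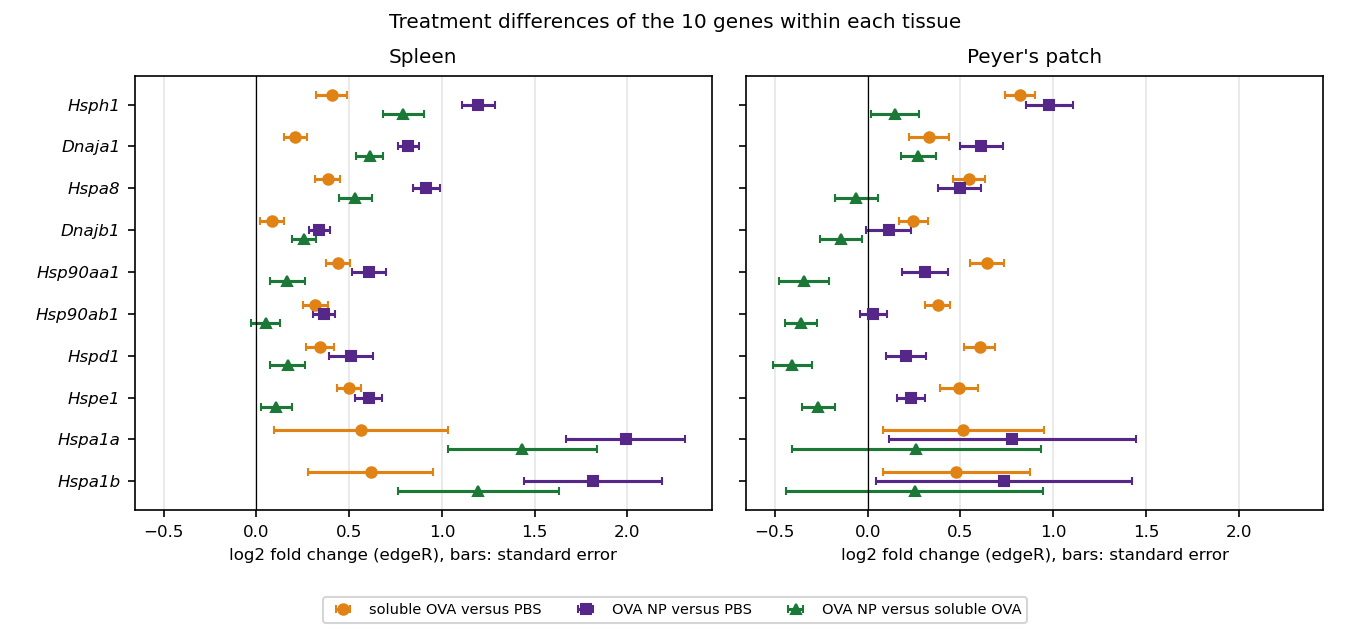
Log2 fold changes (horizontal axis, edgeR) of the 10 genes in the spleen (left) and PP (right) for soluble OVA against PBS (circles), OVA NP against PBS (squares) and OVA NP against soluble OVA (triangles), with bars of 1 standard error. *Hsph1*, *Dnaja1* and *Hspa8* have the largest positive triangles of the 8 abundant genes in the spleen (0.79, 0.61 and 0.53), and in PP the triangles of *Hsp90aa1*, *Hsp90ab1*, *Hspd1*, *Hspe1*, *Dnajb1* and *Hspa8* lie below 0.

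Proliferation and germinal center markers moved with these comparisons. The 10 proliferation markers were all higher with soluble OVA in both tissues, with median log2 fold changes of 1.38 in the spleen and 1.01 in PP, and summed to 615 to 712 CPM with PBS, 1407 to 1565 CPM with soluble OVA and 1261 to 1658 CPM with OVA NP in the spleen. In PP the sums were 1866 to 2298 CPM with PBS, 4190 to 4544 CPM with soluble OVA, and 1500 to 2170 CPM with OVA NP. The 8 germinal center markers were called higher with soluble OVA in 8 of 8 genes in the spleen and 7 of 8 in PP. The proliferation sum of PP with OVA NP overlapped that of PBS. The part of dividing cells in the differences of the 10 genes was not tested.

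Other chaperone genes were followed through 8 lists with 106 genes in all. With soluble OVA, 26 of 97 genes tested (26.8%) were called higher in the spleen and 0 lower, and in PP 30 of 99 (30.3%) were higher and 5 (5.05%) lower, beside 10.5% and 13.5% of all genes called higher, and 6.72% and 13.9% lower. The TRiC chaperonin, which folds actin and tubulin in the cytosol, and prefoldin, which feeds it, had 9 of 14 genes higher in the spleen and 12 of 14 in PP, with medians of 0.30 and 0.40. *Tcp1*, a TRiC subunit, rose by 0.41 in the spleen (standard error 0.06, adjusted p = 0.000503 by edgeR) and 0.49 in PP (standard error 0.08, adjusted p = 0.00178). Among ER chaperones, which fold secreted and membrane proteins, 7 of 16 rose in the spleen and 5 of 16 in PP, with the largest change in *Sdf2l1* (0.99 and 0.74) and including *Creld2* (0.48 and 0.53). *Hspa5*, the ER HSP70, rose by 0.31 in the spleen and was -0.02 in PP (adjusted p = 0.869 by edgeR). Of other HSP70 and HSP110 genes, *Hspa2*, *Hspa4* and *Hspa14* rose in both tissues, 3 of 8, and *Hspa2* had the largest change of these, 0.72 in the spleen and 1.07 in PP. Of the other mitochondrial chaperones, 1 of 12 rose in each tissue, *Hscb* in the spleen (0.41) and *Grpel1* in PP (0.44).

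Co-chaperones of HSP70 and HSP90 rose in part. In the spleen 5 of 24 rose with soluble OVA, among them *Stip1*, which bridges HSP70 and HSP90 (0.40), the immunophilin *Fkbp5* (0.50) and *Bag2* (0.50). In PP 7 of 24 rose, among them *Fkbp5* (0.79), *Cacybp* (0.52) and *Stip1* (0.51), and *Cdc37l1* fell by 0.45 on the log2 scale. Of the 17 other cytosolic J-domain genes, 2 rose, 3 fell and 12 were not called in PP. Over all genes there, 13.5% were called higher and 13.9% lower, so these counts were near the general share. *Dnajc9* (0.63) and *Dnajc2* (0.38) rose there, and *Dnajb2*, *Dnajb5* and *Dnajb14* fell by 1.04, 0.81 and 0.53 on the log2 scale. Heat shock transcription factors were not called in the spleen, 0 of 4 tested, and in PP *Hsf1*, the main activator of the heat shock response, fell by 0.32 (standard error 0.08, adjusted p = 0.0167 by edgeR), a call that DESeq2 did not make. Small heat shock proteins were mostly below the filter, with 2 of 9 tested in the spleen and 4 of 9 in PP, and none was called with soluble OVA.

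**Figure D4:**
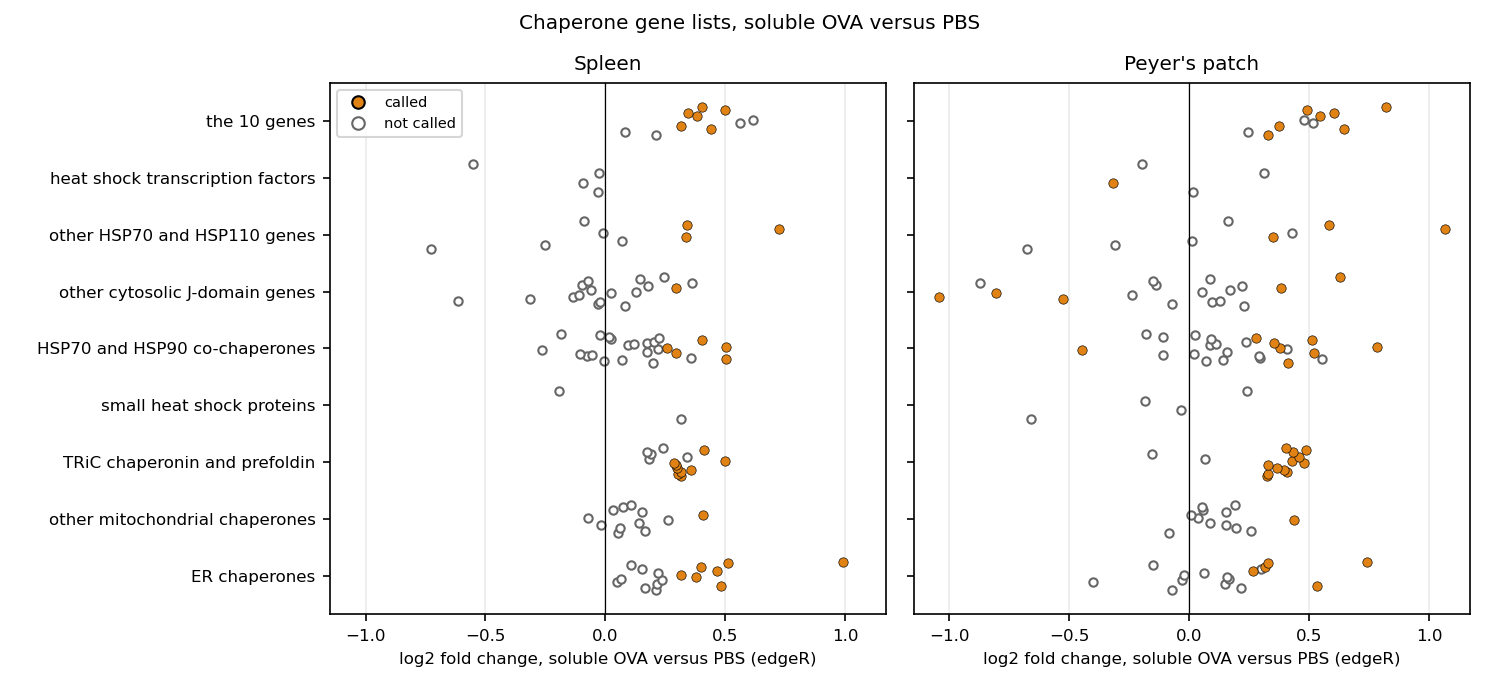
Log2 fold change for soluble OVA against PBS (horizontal axis, edgeR) of each tested gene (points) in 9 rows of genes (vertical axis) in the spleen and PP, filled where called (adjusted p under 0.05 and absolute log2 fold change above 0.25). Filled points lie right of 0 in the spleen in all rows that have any, and in PP the 5 filled points left of 0 are *Hsf1*, *Dnajb2*, *Dnajb5*, *Dnajb14* and *Cdc37l1*.

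With OVA NP in the spleen, 33 of 97 of these genes were called higher than with PBS and 0 lower, beside 8.6% of all genes called higher. They included 12 of 16 ER chaperones (*Sdf2l1* 1.09, *Creld2* 0.80, *Hsp90b1* 0.58), 9 of 14 TRiC and prefoldin genes and 9 of 24 co-chaperones (*Bag2* 0.81, *Stip1* 0.70, *Chordc1* 0.56). *Chordc1*, a partner of HSP90, was at 65.3 ± 4.03 CPM with PBS, 76.0 ± 3.99 CPM with soluble OVA and 95.6 ± 2.76 CPM with OVA NP in the spleen. Its levels in PP were 67.4 ± 8.46, 90.0 ± 13.9 and 94.8 ± 6.66 CPM. Between OVA NP and soluble OVA in the spleen, 0 of 97 were called higher by edgeR and 2 by DESeq2, where 0.137% of all genes were called higher by edgeR. In PP, 0 of 99 were called between OVA NP and PBS by edgeR and 3 by DESeq2, where 0% of all genes were called by edgeR, 1573 of 15798 had an unadjusted p under 0.05, and DESeq2 called 150. Between OVA NP and soluble OVA in PP, 28 of 99 were lower and 7 higher with OVA NP, beside 16.3% and 13.8% of all genes. The lower genes included 11 of 14 TRiC and prefoldin genes, among them *Tcp1* (-0.61), *Cct7* (-0.52) and *Cct5* (-0.48). In the same comparison 10 of 10 proliferation markers were lower (median -1.24), as were 6 of 8 germinal center markers. Of the T cell markers 5 of 9 were higher and 1 lower (median 1.45), while their sum was 137 to 147 CPM with OVA NP and 163 to 183 CPM with soluble OVA. Of the myeloid markers 3 of 6 were higher (median 0.88), and their sum was 144 to 243 CPM and 95.4 to 109 CPM. The part of these markers in the chaperone differences was not tested.

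Over the 18 libraries, with differences between groups included, the named genes whose levels followed *Hsph1* most closely were other chaperone genes. By Pearson's r of log2 CPM among the 10526 genes averaging 5 CPM or more, the closest genes with names were *Dnaja1* (0.941), *Hspa8* (0.933), *Chordc1* (0.929), *Creld2* (0.912) and *Stip1* (0.874). *Hsp90aa1* had an r of 0.811 and rank 11, *Dnajb1* 0.722, *Hspe1* 0.652, *Hsp90ab1* 0.650 and *Hspd1* 0.567, and *Hspa1a* (0.407) and *Hspa1b* (0.401) held ranks 1604 and 1668. These values describe 6 groups of 3 libraries that share treatment and tissue, and are not independent points. They include the OVA NP and PBS libraries of the contrast that chose *Hsph1*, and are a description only. With each group's mean subtracted the closest genes were *Sptb* (0.90), *Fads3* (0.865), *Ide* (0.847), *Cep290* (0.840) and *Hspd1* (0.840). Of these, *Sptb*, *Fads3*, *Ide* and *Cep290* are in none of the chaperone lists. By that measure *Dnaja1* and *Hspa8* stood at 0.585 and 0.521, at ranks 252 and 448. In the spleen alone (9 libraries) the closest named genes were *Chordc1* (0.973), *Hspa8* (0.969), *Tmem33* (0.967), which is in none of the chaperone lists, *Dnaja1* (0.961) and *Dnajc3* (0.956). There *Hspa1a* had an r of 0.906. In PP alone (9 libraries) the closest were *Cep290* (0.955), *Mtmr4* (0.942) and *Scoc* (0.936).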

How the data were processed

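Bulk RNA-Seq of B cells was analysed in 18 libraries, each assigned to tissue, treatment and replicate by its label. Per the labels and methods, the authors used Cutadapt 2.3 for trimming, STAR 2.7.8a for alignment to GRCm38 and RSEM 1.3.3 for gene counts. The deposited values are expected counts without normalization, and 0 of them were not whole. Whether the counting used strand is not given in the sources used here. Counts were rounded, filtered (filterByExpr, minimum count 10, minimum total 15), normalized by TMM and tested with edgeR 4.0.16 in R 4.3.3 (quasi-likelihood F test, Benjamini-Hochberg over all tested genes) on the 6 libraries of each comparison, or 12 for the tissue difference. A call needed a log2 fold change beyond 0.25 in either direction together with an adjusted p below 0.05, the study's cutoffs, or by adjusted p alone for the tissue difference. The authors used DESeq2, run here (1.42.0) as an alternative. CPM values were TMM-normalized over all 18 libraries.

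The 10 genes, the gene lists and the tests were chosen with earlier results of these data known. From each list, up to 3 called genes per direction and comparison with the largest changes and a mean of at least 1 CPM could be named, while *Hspa5* was chosen after its values were seen. For likeness, the 5 closest genes to *Hsph1* (mean of at least 5 CPM, prior count 2) were named, leaving out Gm and Rik symbols. Coordinates and transcript lengths came from GENCODE M21 (GRCm38), matched for 10 of 10 genes. Promoter sequences are credited to RefSeq. The 18 within-group pairs of libraries differed by a chi-square of 4.72 to 41.3 per gene. Floors of 3 counts cover counting error only. Standard errors of log2 fold changes were derived from edgeR's fold change and F statistic, and reflect the spread between libraries. The 95% intervals took a normal multiple of these standard errors. With 3 libraries per group they are approximate, and narrower than the F test would give. The steps were tested on simulated data. Alternatives were other normalizations and filters, all 18 libraries in 1 fit, no fold-change cutoff, a replicate block, *Hspa1a* and *Hspa1b* summed, and leaving out each library.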

Additional observations from a re-analysis of the deposited data

Results flagged for a closer look

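The soluble OVA effect differed between tissues in 8 of 17 immediate-early genes (12 by DESeq2) and in 2 of 99 chaperone list genes (6 by DESeq2), beside 6.84% of all genes tested by edgeR. Among the chaperone and immediate-early genes named by rule, 5 had a soluble OVA effect that differed between tissues by a test of the interaction (edgeR, 12 libraries). All 5 differences were negative, that is, lower in PP than in the spleen. *Dnajb2*, a J-domain protein, differed by -0.90 (standard error 0.13, adjusted p = 0.000727), and *Dnajb5* by -0.82 (standard error 0.16, adjusted p = 0.00566). *Dnajb2* was at 33.1 ± 3.90 CPM with PBS, 16.2 ± 0.939 CPM with soluble OVA and 36.4 ± 1.94 CPM with OVA NP in PP, and at 30.2 ± 1.22, 27.4 ± 0.857 and 30.5 ± 3.49 CPM in the spleen. Among the immediate-early genes, *Fosb* differed by -2.80 (adjusted p = 0.0388), *Egr2* by -1.88 (adjusted p = 0.00256) and *Fos* by -1.75 (adjusted p = 0.0306), each by edgeR. None of the 10 heat shock protein genes moved in opposite directions without overlap in the 2 tissues.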

How the results depend on the processing

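The log2 fold changes of the 10 genes were recomputed as 1164 values under the alternatives, of which 20 changed direction, and where a test was made 8 lost and 29 gained a call. *Hspd1* in the spleen with soluble OVA was not called with all 18 libraries in 1 fit (0.34, edgeR adjusted p = 0.0552). Genes called between PP and spleen in PBS mice numbered 3, and 5 with at least 10 counts in every library or with no fold-change cutoff, and between 3 and 6 when each library was left out, the highest without PP PBS replicate 1. Genes called for the tissue difference of the soluble OVA effect numbered 0, and 1, *Hsph1*, with DESeq2, with TMM without immunoglobulin and mitochondrial genes, with no filter and with at least 10 counts in every library, and between 0 and 1 when each library was left out. The median OVA NP difference from soluble OVA was 0.396 in the spleen, and 0.257 with *Hspa1a* and *Hspa1b* summed, and in PP -0.103, ranging from -0.315 to -0.0372 when each library was left out.

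The chaperone lists had 2 genes called for the tissue difference, and 6 with DESeq2 and 6 with at least 10 counts in every library. Between OVA NP and PBS in PP they had 0 called genes, and 3 with DESeq2, 4 with no filter and 2 with all 18 libraries in 1 fit. Between OVA NP and soluble OVA in the spleen they had 0, and 2 with DESeq2 and 3 with no filter. Over all genes, OVA NP against PBS in PP gave 0 DEGs, and 150, 146 and 24 under the same alternatives and up to 8 when each library was left out. OVA NP against soluble OVA in the spleen gave 33, and 83 with DESeq2, 230 with no filter, 14 with all 18 libraries and 0 to 40 when each library was left out. The tissue difference gave 1131, and 1823 with DESeq2 and 655 to 1279 when each library was left out.

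Directions turned where the differences were close to 0 or 1 PP OVA NP library stood apart. *Hspe1* between PP and spleen was 0.02 in PBS mice, and -0.0211 with no filter, -0.00281 with all 18 libraries and -0.0427 to 0.0555 when each library was left out. In soluble OVA mice it was 0.00, and -0.00442 with TMM without immunoglobulin and mitochondrial genes and -0.041 to 0.115 when each library was left out. For OVA NP against PBS in PP, leaving out each library gave -0.0862 to 1.15 for *Hspa1a*, -0.229 to 1.1 for *Hspa1b* and -0.0366 to 0.0726 for *Hsp90ab1*. For OVA NP against soluble OVA in PP it gave -0.665 to 0.564 for *Hspa1a*, -0.771 to 0.555 for *Hspa1b*, -0.22 to 0.00226 for *Hspa8* and -0.0741 to 0.206 for *Hsph1*. The causes were not tested.

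Correlations of same-numbered libraries' deviations from their group means ran from -0.383 to 0.237, and in no comparison did every library correlate best with its own number. Between PP and spleen they were 0.00422 to 0.112 in PBS mice and -0.076 to 0.112 in soluble OVA mice. With 3 libraries per group, these values cannot decide whether spleen and PP libraries of a number came from 1 mouse. With the replicate number as a block, *Dnaja1* in PP with soluble OVA was not called (edgeR adjusted p = 0.0553), *Hspe1* between tissues in soluble OVA mice was -0.00272, and *Hspa1a* and *Hspa1b* between OVA NP and soluble OVA in PP were -0.0208 and -0.085. The block gave 22 called list genes in place of 35 and 3119 DEGs in place of 4697 for OVA NP against soluble OVA in PP.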
